A study of Mus musculus with 7 samples.

Results

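OG2 embryonic stem (ES) cells were compared with induced pluripotent stem (iPS) cells of line O4-1, both grown in N2B27 medium with 2i, on 1 Affymetrix array each out of 7 arrays in the series. Values are deposited log2 expression, and each difference is the ES value minus the iPS value, so that 1 unit is a 2-fold difference. With 1 array on each side there is no test, no p-value and no replicate error for any difference, and all statements describe these 2 cultures. Each gene was read from the probe sets that carry exactly 1 gene symbol, through the one with the highest mean over the 7 arrays. This gave 19938 genes, of which 19103 are autosomal, 739 X-linked and 9 Y-linked, and 87 had no assigned chromosome.

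OG2 is a mouse strain that carries a green fluorescent reporter of Oct4, and line O4-1 came from mouse embryonic fibroblasts infected with Oct4 as the single factor the labels name. The other arrays held O4-1, O4-2 and O4-4 in KSR medium (serum replacement, n = 3 lines) and 129/OG2 fibroblasts (MEFs) in FBS and in the medium called iCD1 (1 array each). Values of KSR lines are given in the order O4-1, O4-2, O4-4 and those of MEFs in the order FBS, iCD1. The genetic background of the iPS lines, the passage of any culture and the use of feeder cells are not stated in the labels, and each iPS line is 1 line. The labels also disagree among themselves: every description speaks of iPS cells early after infection, and the ES source field names fibroblasts, so titles and growth conditions were followed. The 3 KSR lines give the only spread between cultures of one kind and come from another medium, and precision is limited by how few arrays there are. Array medians lay between 4.97 and 5.03, and low values are not separated from background.

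In 2i, an inhibitor of MEK and an inhibitor of GSK3 hold mouse pluripotent cells in the naive state, close to the preimplantation epiblast. Reprogramming of a fibroblast has to switch off the fibroblast programme of collagens, matrix proteins and contractile genes and to switch on the pluripotency network. ES cells, derived from embryos, are the usual standard for such lines, and donor-cell genes that stay on in iPS cells are known as residual expression or donor memory. Imprinted genes and germline genes, both governed by DNA methylation and repressive chromatin, are classes in which pluripotent lines are known to vary.

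Both cultures expressed the pluripotency markers at high levels. The Oct4 gene Pou5f1 lay at 10.77 in the iPS cells and 10.66 in the ES cells, against 3.40 and 4.04 in MEFs. Nanog lay at 11.15 and 11.26, Sox2 at 10.23 and 10.16, and Dppa5a, which encodes an RNA-binding protein, at 12.70 and 12.83. All 10 pluripotency markers were above the gene median on both arrays, and the one that was 2-fold apart, Utf1, was lower in the ES cells. Among the markers of primitive endoderm, trophoblast, neural cells, macrophages and endothelium, none of those measured was 2-fold apart. The sum of the 10 fibroblast markers on the linear scale was 15378 and 17454 in MEFs, 1246 in the iPS cells and 2243 in the ES cells, so the ES array was far from the fibroblasts its source field names.

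Across the autosomes the 2 cultures were close. The median difference was -0.01 with a standard deviation over genes of 0.31, and 131 genes (0.686% of 19103) were 2-fold or more higher in ES cells and 48 (0.251%) 2-fold or more lower. Together these are 179 genes (0.937%). Pairs of KSR lines differed by the same measure in 103 genes (0.539%, O4-2 against O4-1), 288 (1.51%, O4-4 against O4-1) and 525 (2.75%, O4-4 against O4-2). The ES and iPS cells in 2i thus differed in more genes than the closest pair of sister lines and in fewer than the other 2 pairs. Line O4-1 itself, between 2i and KSR, was 2-fold apart in 260 genes.

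The counts were uneven between the directions. The KSR pairs had 52 against 51, 148 against 140 and 260 against 265 genes in their 2 directions, where ES against iPS had 131 against 48. The iPS array in 2i was also uneven against each KSR line, with 92, 143 and 62 genes 2-fold higher and 168, 298 and 114 lower. The ES array had 303, 337 and 138 higher and 225, 301 and 88 lower against the same lines, and these comparisons share their arrays. Among 10073 autosomal genes whose higher value reached the gene median of its array, 100 were higher in ES cells and 22 lower. Of the 48 lower genes 26 therefore lay in the low range, where olfactory and vomeronasal receptor genes such as Olfr430 and Vmn2r9 were found. Olfactory receptor genes in the low range, such as Olfr124, were also among the higher genes. Genes that were both 2-fold apart and further apart than the whole range of the 3 KSR lines numbered 108 higher (0.565%) and 38 lower (0.199%).

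**Figure D1:**
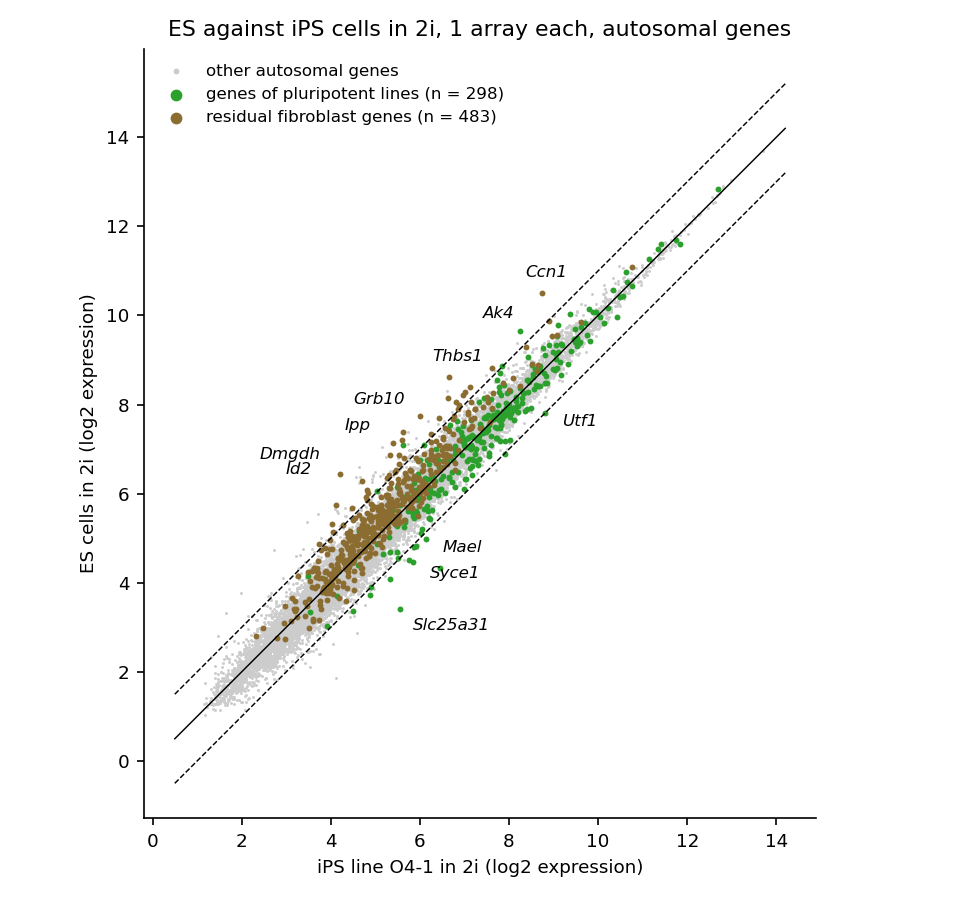
Each point is 1 autosomal gene, with log2 expression in iPS line O4-1 in 2i on the horizontal axis and in ES cells in 2i on the vertical axis, a solid line at equality and dashed lines at 2-fold. Residual fibroblast genes (n = 483, brown) lie mostly above the line of equality, and genes of pluripotent lines (n = 298, green) lie on both sides of it, with Slc25a31 furthest below.

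Among autosomal genes whose higher value reached the gene median, the largest difference was that of Id2, an inhibitor of basic helix-loop-helix factors that BMP signalling induces. Id2 lay at 6.94 and 7.37 in MEFs, 4.46, 4.97 and 4.75 in the KSR lines, 4.21 in iPS cells and 6.43 in ES cells, a difference of 2.23 (4.68-fold). ES cells were above all 4 iPS arrays and below both MEF arrays. Thbs1, which encodes the matrix glycoprotein thrombospondin 1, lay at 12.37 and 10.67 in MEFs, 7.89, 8.47 and 8.34 in the KSR lines, 6.66 in iPS cells and 8.61 in ES cells (difference 1.96). Here the 2i iPS array stood below all KSR lines, while the ES array stood just above the highest of them.

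Other genes had a level in ES cells that no other culture reached. Ipp, an actin-binding kelch protein gene, lay at 4.78 and 4.82 in MEFs, 4.94, 5.04 and 5.08 in the KSR lines, 5.16 in iPS cells and 7.06 in ES cells. The 6 other arrays thus spanned 4.78 to 5.16, and the ES array was 1.90 above the iPS array. Pramel7, which promotes ground-state pluripotency, lay at 3.76, 3.36 and 3.94 in the KSR lines, 3.46 in iPS cells and 5.35 in ES cells (difference 1.89), with MEFs at 2.54 and 2.70. Dmgdh, a mitochondrial enzyme of choline breakdown, was at 4.64 in iPS cells and 6.59 in ES cells, and the elongin B-like gene Elobl at 4.66 and 6.38. Mme, which encodes the surface peptidase neprilysin (CD10), lay at 6.96, 6.46 and 7.53 in the KSR lines, 6.60 in iPS cells and 8.30 in ES cells. Saa3, an acute-phase serum amyloid gene, did not set the ES cells apart from every line, with 7.35 in line O4-4 and 7.38 in ES cells against 5.73 in iPS cells.

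In the other direction, among autosomal genes whose higher value reached the gene median, the largest difference was that of Slc25a31. The predicted gene 1700018B24Rik, singled out after its values were seen, was close behind at -2.12 (6.45 in iPS and 4.32 in ES cells). Olfr430, in the low range, differed by -2.24 (4.11 in iPS and 1.87 in ES cells). Slc25a31 encodes ANT4, an ADP/ATP carrier of male germ cells, and lay at 2.91 and 2.93 in MEFs, 7.01, 5.81 and 6.54 in the KSR lines, 5.56 in iPS cells and 3.41 in ES cells. The ES value was 2.15 below the iPS value (4.43-fold) and nearer to the MEF mean of 2.92 than to any iPS array. Outside the germline genes, Cdca7l, a MYC-interacting gene, was at 7.63, 7.70 and 7.75 in the KSR lines, 7.70 in iPS cells and 6.54 in ES cells, a difference of -1.16 where the KSR lines had a range of 0.13. Slc6a9, the glycine transporter GLYT1, lay at 5.83, 6.31 and 5.83 in the KSR lines, 5.95 in iPS cells and 4.79 in ES cells. Myo5a, an unconventional myosin of vesicle transport, was at 6.89, 7.01 and 6.75 in the KSR lines, 6.53 in iPS cells and 5.39 in ES cells. For all 3 genes the ES array was below each of the other 6 arrays, apart from MEFs for Cdca7l, at 6.49 and 5.97. Slc7a7, an amino acid transporter gene, gives a contrasting case: its difference of -1.12 is smaller than the KSR range of 2.94. The same held for Enox1 (-1.10, KSR range 1.22) and for Stk31, Mael and Nlrp4c, described below.

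**Figure D2:**
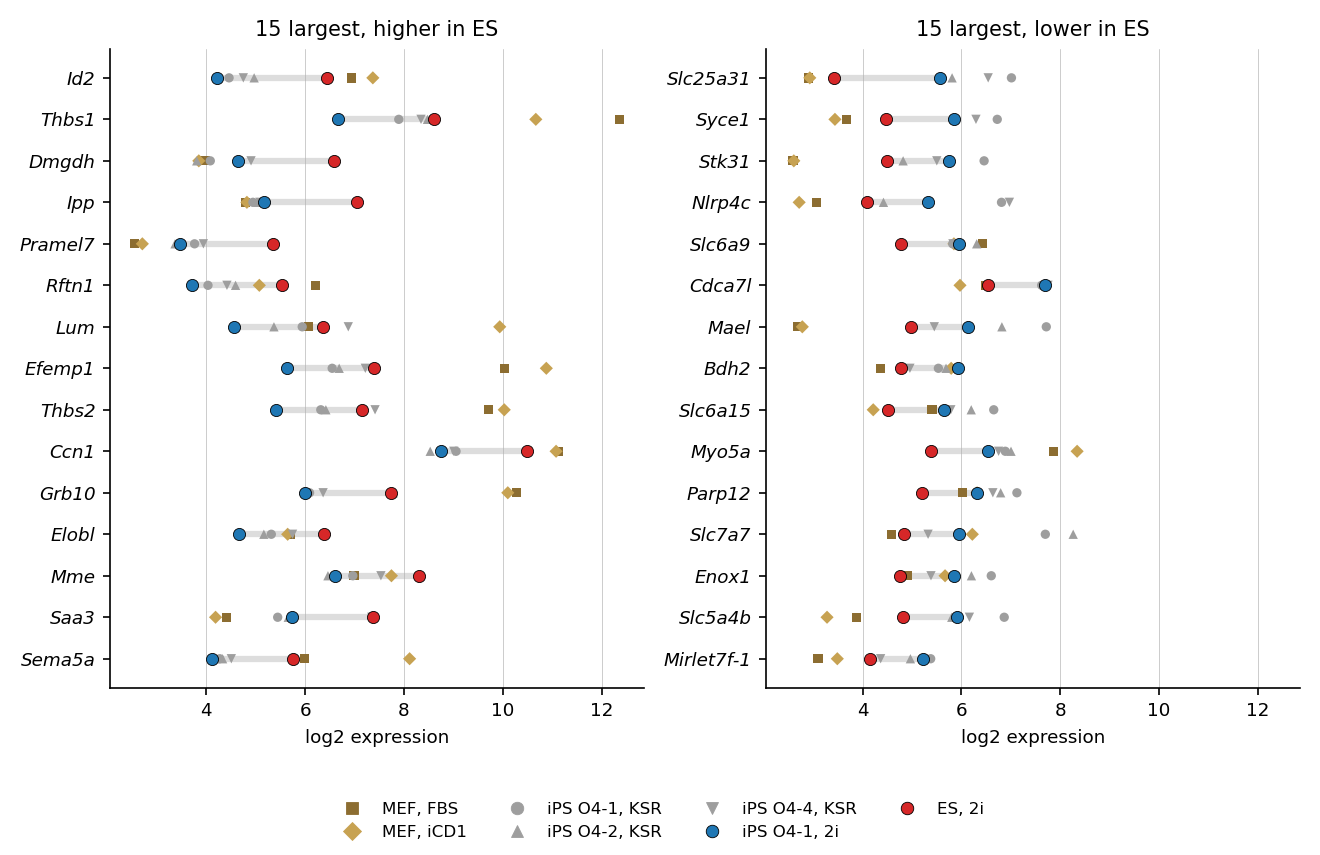
Log2 expression on all 7 arrays for the 15 autosomal genes with the largest difference in each direction whose higher value reached the gene median, with the iPS (blue) and ES (red) arrays in 2i joined by a bar and each other array as 1 symbol. Ipp is a gene with 6 arrays between 4.78 and 5.16 and ES cells at 7.06, whereas for Slc25a31 the ES value of 3.41 lies near the MEF values of 2.91 and 2.93.

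Residual fibroblast genes were defined without either 2i array, as autosomal genes at least 4-fold higher in the MEF mean than in the KSR mean with both MEF arrays above all 3 KSR lines. This gave 483 genes. In 2i their median difference was 0.30, against -0.01 for all autosomal genes, and 390 (80.7%) were higher in ES cells, against 46.6% of autosomal genes. By contrast 92 were lower, where 51.4% of all autosomal genes were. In 2-fold terms, 36 (7.45%) were higher in ES cells and 0 lower, set against 0.686% and 0.251% of autosomal genes. Fibroblast genes were thus mostly higher in the ES cells than in the O4-1 iPS cells in 2i. This does not extend to the KSR lines, which were also made from fibroblasts.

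The levels show where each culture stood. The median residual fibroblast gene was at 16.0%, 18.1% and 18.1% of its MEF level in KSR lines O4-1, O4-2 and O4-4, at 14.6% in iPS cells in 2i and at 17.7% in ES cells. ES cells therefore stood among the KSR lines and the 2i iPS cells stood below all of them. Of the 483 genes, 278 reached the gene median on the 2i array where they were higher. Low values are not separated from background, so these percentages can include background signal, which can also limit the count of genes 2-fold lower. Gene by gene, the iPS array in 2i was below all 3 KSR lines for 262 of 483 genes (54.2%, against 23.5% of autosomal genes) and above all 3 for 40 (8.28%, against 27.6%). The ES array was above all 3 KSR lines for 139 (28.8%, against 26.5%) and below all 3 for 132 (27.3%, against 26.8%), shares near those of all autosomal genes. Line O4-1 was also the lowest of the sister lines in KSR: the median difference over the 483 genes was 0.21 for O4-2 minus O4-1, 0.18 for O4-4 minus O4-1 and -0.02 for O4-4 minus O4-2. Pairs of KSR lines had 6 and 1, 24 and 2, and 24 and 14 of these genes 2-fold higher and lower.

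**Figure D3:**
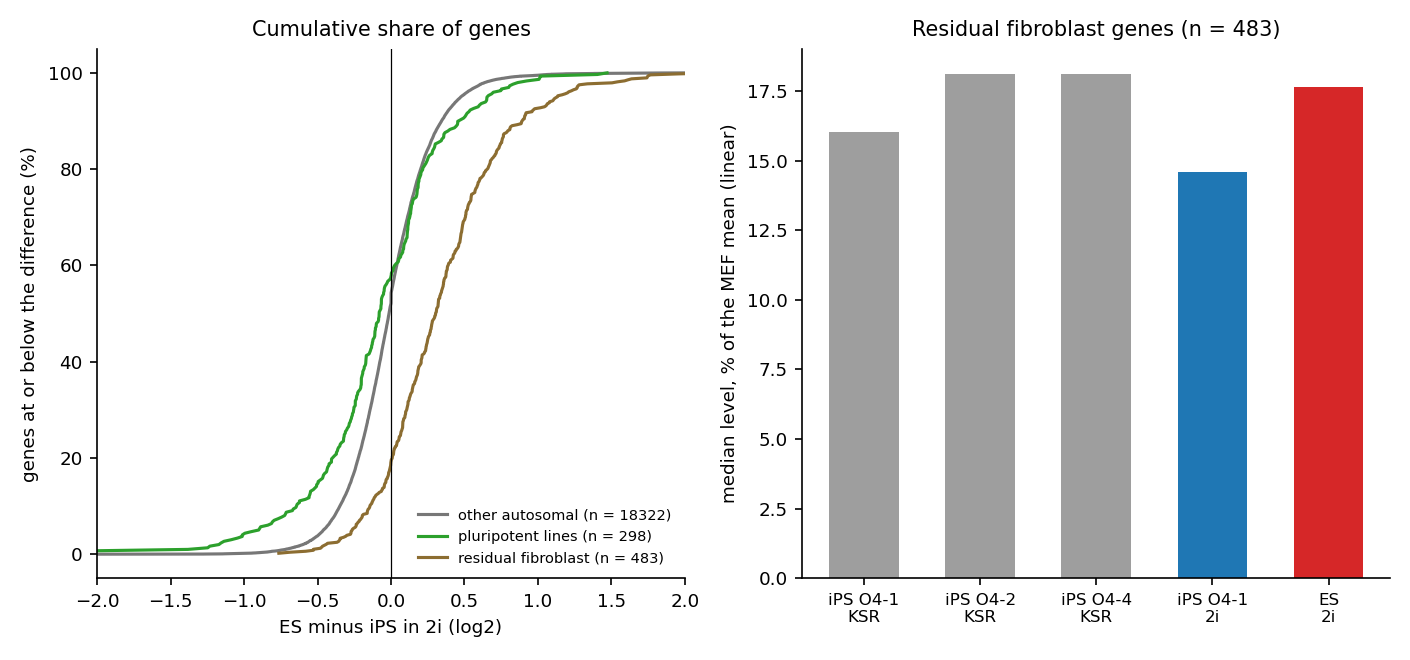
The left panel shows the cumulative share of genes (%) against the log2 difference ES minus iPS in 2i for residual fibroblast genes, genes of pluripotent lines and other autosomal genes, and the right panel the median level of residual fibroblast genes as a percent of the MEF mean on the linear scale in 5 pluripotent cultures, 1 array per bar. The brown curve is shifted to the right (median 0.30), and the iPS bar in 2i (14.6%) is the lowest of the 5.

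The residual fibroblast genes that were furthest apart after Id2 and Thbs1 were Efemp1 and Thbs2. Efemp1, which encodes fibulin 3, lay at 10.04 and 10.88 in MEFs, 6.55, 6.69 and 7.22 in the KSR lines, 5.62 in iPS cells and 7.39 in ES cells. Thbs2, a relative of Thbs1, lay at 9.71 and 10.03 in MEFs, 6.31, 6.42 and 7.41 in the KSR lines, 5.40 in iPS cells and 7.15 in ES cells. Both had the 2i iPS cells as the lowest of all arrays, but ES cells passed every KSR line for Efemp1 only. Col12a1, a collagen that decorates collagen fibrils, was 1.61 higher in ES cells, Timp3, an inhibitor of matrix proteases, 1.54 higher, and the lysyl oxidase gene Lox, whose product cross-links collagen, 1.27 higher. Col3a1, the collagen III chain, lay at 10.15 and 11.52 in MEFs, 7.53, 7.41 and 8.67 in the KSR lines, 7.02 in iPS cells and 8.29 in ES cells, so that line O4-4 exceeded the ES cells.

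Among the 10 residual fibroblast genes with the largest differences were also Ccn1, Meis2 and Sema5a, for which the iPS array in 2i took different places. Ccn1, a matricellular target of YAP and serum response factor, lay at 11.13 and 11.08 in MEFs, 9.05, 8.53 and 9.01 in the KSR lines, 8.75 in iPS cells and 10.49 in ES cells. Meis2, a homeobox gene of limb and trunk mesenchyme, lay at 7.47 and 8.21 in MEFs, 4.24, 4.44 and 4.26 in the KSR lines, 4.70 in iPS cells and 6.29 in ES cells. Sema5a, a guidance molecule gene, lay at 5.98 and 8.11 in MEFs, 4.27, 4.33 and 4.50 in the KSR lines, 4.12 in iPS cells and 5.75 in ES cells. The iPS array in 2i was below all KSR lines for Sema5a, among them for Ccn1 and above them for Meis2. For these 3 genes and for Id2 the ES array stood above every iPS array by more than the range of the KSR lines. Over the 36 genes 2-fold higher, the ES array was above all KSR lines for 22 (61.1%) and the 2i iPS array below all of them for 25 (69.4%), where over all 131 autosomal genes 2-fold higher these shares were 76.3% and 45.8%. At the lower end were Piezo2 (-0.76) and the forkhead gene Foxc1 (-0.69), and 3 probe sets of Piezo2 ranged from -0.76 to -0.05.

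A list of 36 fibroblast genes, named from general knowledge but with earlier results of these data known, gave a median of 0.47. In ES cells 31 (86.1%, against 46.6% of autosomal genes) were higher and 5 lower, the lowest at -0.67. Of the higher genes, 5 (13.9% of the list, against 0.686%) were 2-fold higher: Lum, Dcn, Lox, Col3a1 and Fstl1. Lum and Dcn, which encode the collagen-binding proteoglycans lumican and decorin and were not among the 483, were 1.80 and 1.34 higher. Its median between KSR pairs was 0.10, 0.36 and 0.22 (O4-2 minus O4-1, O4-4 minus O4-1, O4-4 minus O4-2). The transcription factors of mesenchyme on this list lay on both sides of 0 and inside 2-fold, with Zeb1 at -0.23, Tcf21 at -0.07, Twist2 at -0.04, Twist1 at 0.04, Zeb2 at 0.11, Snai1 at 0.19, Snai2 at 0.34 and Prrx1 at 0.51. The YAP and contractile list (20 genes) had a median of 0.40, with Thbs1, Ccn1 and Ccn2 2-fold higher. Its smooth muscle actin gene Acta2, at 12.48 and 10.55 in MEFs and 8.18, 9.12 and 7.79 in the KSR lines, was at 6.19 in iPS cells and 6.18 in ES cells, and Tagln was at 4.84 and 4.62. Acta2 and Tagln were thus lower in both 2i cultures than in any KSR line and did not share the direction of the collagens.

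The 10 fibroblast markers all meet the definition of the residual fibroblast genes, so they are part of that group and no separate observation. All 10 were higher in ES cells, and Col3a1 was 2-fold higher. Their levels ran from 4.72 to 8.90 in iPS cells and from 5.15 to 9.87 in ES cells, and their linear sums were 1555, 1565 and 3033 in the KSR lines, 1246 in iPS cells and 2243 in ES cells. The sum in ES cells lay within the range of the KSR lines. In RNA of a whole culture, fewer cells of a type and less RNA per cell cannot be told apart, and the part of fibroblast-like cells in these differences was not tested. Among the 131 autosomal genes 2-fold higher in ES cells, 36 (27.5%) were residual fibroblast genes, which are 2.53% of autosomal genes, and 5 (3.82%) were genes of pluripotent lines. Since these shares and the counts above come from the same 2 arrays, they are not separate observations.

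Genes of pluripotent lines, chosen in the reverse way from MEF and KSR arrays, numbered 298 and had a median difference of -0.08. In ES cells 126 (42.3%, against 46.6% of autosomal genes) were higher and 171 lower. By 2-fold, 5 (1.68%) were higher and 12 (4.03%) lower, against 0.686% and 0.251% of autosomal genes. Pairs of KSR lines had 5 and 20 (O4-2 minus O4-1), 19 and 32 (O4-4 minus O4-1), and 48 and 28 (O4-4 minus O4-2) of these genes 2-fold higher and lower. The order of subtraction within a pair of sister lines is arbitrary, so higher and lower can be exchanged there. In each pair the larger count exceeded the 12 of ES against iPS, while the smaller count of O4-2 against O4-1, at 5, did not. The genes 2-fold higher in ES cells were Crxos, Ak4, Slco4c1, Calcoco2 and Cyp2b23. The differences of Crxos, Ak4, Slco4c1 and Calcoco2 (1.47, 1.40, 1.02 and 1.01) were smaller than their KSR ranges of 2.88, 1.56, 1.20 and 4.08. That of Cyp2b23 (1.01) was larger than its range of 0.49. Ak4, a mitochondrial adenylate kinase gene, lay at 6.93, 6.98 and 8.49 in the KSR lines, 8.25 in iPS cells and 9.66 in ES cells (1.40 higher), above every other array. Crxos, a homeobox gene of naive cells, lay at 5.10, 3.72 and 6.60 in the KSR lines, 5.63 in iPS cells and 7.10 in ES cells. The 12 lower genes were 25.0% of the 48 autosomal genes 2-fold lower, against 1.56% of autosomal genes, and genes of germ cells and oocytes such as Slc25a31, Syce1 and Nlrp14 were among them.

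The core pluripotency factors were near equal, whereas Utf1 and the Lin28 genes were lower in ES cells. In the list of 26 pluripotency genes the median was -0.19, with 10 (38.5%, against 46.6% of autosomal genes) higher and 16 lower. Utf1, a chromatin-associated factor, lay at 9.71, 9.89 and 7.58 in the KSR lines, 8.82 in iPS cells and 7.81 in ES cells, a difference of -1.01 just past 2-fold. Lin28b, which blocks the maturation of let-7 microRNAs, lay just inside it at -0.99, with 5.74, 6.16 and 4.94 in the KSR lines, 4.90 in iPS cells and 3.90 in ES cells. Its paralog Lin28a, at 9.05, 9.05 and 8.03 in the KSR lines, was at 7.91 in iPS cells and 7.19 in ES cells. Both Lin28 genes were lowest in ES cells among the 5 pluripotent cultures, and line O4-4 was the lowest KSR line for Utf1 and for both of them. Zfp296, a zinc finger gene that aids reprogramming, went the other way, with 7.60, 7.31 and 7.91 in the KSR lines, 7.80 in iPS cells and 8.72 in ES cells.

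Naive genes were high in both cultures. Of 21 naive genes 14 (66.7%, against 46.6% of autosomal genes) were higher and 7 lower in ES cells, with a median of 0.11. On either array 0 lay below all KSR lines, where 26.8% (ES) and 23.5% (iPS) of autosomal genes did. Spic, an ETS-family factor, was the one 2-fold apart at 1.02 (4.44 in iPS and 5.46 in ES cells), and line O4-4 exceeded both at 5.97. Tfcp2l1, a factor that sustains the naive state, lay at 7.37, 6.70 and 9.68 in the KSR lines, 9.10 in iPS cells and 9.79 in ES cells. Esrrb, Zfp42, Klf2 and Prdm14 differed by 0.08, -0.04, 0.15 and 0.11. On the formative and primed list (20 genes, median -0.06) none was 2-fold apart, and the lowest were the de novo DNA methyltransferase gene Dnmt3a (-0.84, from 6.76 to 5.92) and the Wnt effector gene Lef1 (-0.74, from 6.22 to 5.47). Dnmt3b and Dnmt3l, at -0.13 and -0.32, were closer, and Tet1 and Tet2 differed by -0.20 and -0.08. In the list of genes of the 2-cell-like state (11 genes), Pramel7 and Calcoco2 were 2-fold higher in ES cells, and Zfp352 was 0.43 lower at a low level. For Calcoco2, line O4-4 at 9.71 exceeded the ES cells at 8.87.

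Of the 36 lists, germline genes had the lowest median. These genes of meiosis and of the piRNA pathway, which silences transposons in germ cells, are held down in most cells and are partly open in pluripotent ones. Of 40 measured members 29 were lower in ES cells and 11 (27.5%, against 46.6% of autosomal genes) higher, with a median of -0.26. By 2-fold, 5 (12.5%) were lower, against 0.251% of autosomal genes, and 0 higher. The 5 were Slc25a31, Syce1, Stk31, Mael and Asz1, all autosomal. KSR pairs had medians of -0.42, -0.30 and 0.18 for the list, so that sister lines differed by as much. ES cells were below all 3 KSR lines for 18 of the 40 genes and the 2i iPS cells for 10, where 26.8% and 23.5% of autosomal genes were, so the count for the iPS cells was near that background.

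Syce1, a central element protein of the synaptonemal complex, lay at 3.67 and 3.44 in MEFs, 6.73, 5.86 and 6.30 in the KSR lines, 5.86 in iPS cells and 4.47 in ES cells. Stk31, a Tudor domain kinase gene of spermatogenesis, lay at 2.59 and 2.61 in MEFs, 6.46, 4.82 and 5.50 in the KSR lines, 5.75 in iPS cells and 4.50 in ES cells. Mael, a piRNA pathway gene, lay at 2.69 and 2.78 in MEFs, 7.72, 6.82 and 5.45 in the KSR lines, 6.13 in iPS cells and 4.97 in ES cells. In each the ES cells stood below all iPS arrays and above the MEFs. Asz1, another piRNA pathway gene, lay at 5.94, 4.23 and 6.06 in the KSR lines, 4.50 in iPS cells and 3.37 in ES cells. The differences of Stk31 (-1.25), Mael (-1.16) and Asz1 (-1.14) were smaller than their KSR ranges of 1.64, 2.27 and 1.82. Those of Slc25a31 (-2.15) and Syce1 (-1.38) were larger than theirs, at 1.20 and 0.87. The oocyte genes Nlrp4c and Nlrp14 differed in the same direction, by -1.23 and -1.17, with KSR ranges of 2.55 and 0.96. The germline regulators were not uniformly lower: Dazl differed by -0.36, Stra8 by -0.06, Prdm14 by 0.11, Kit by 0.18 and Prdm1 by 0.41.

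**Figure D4:**
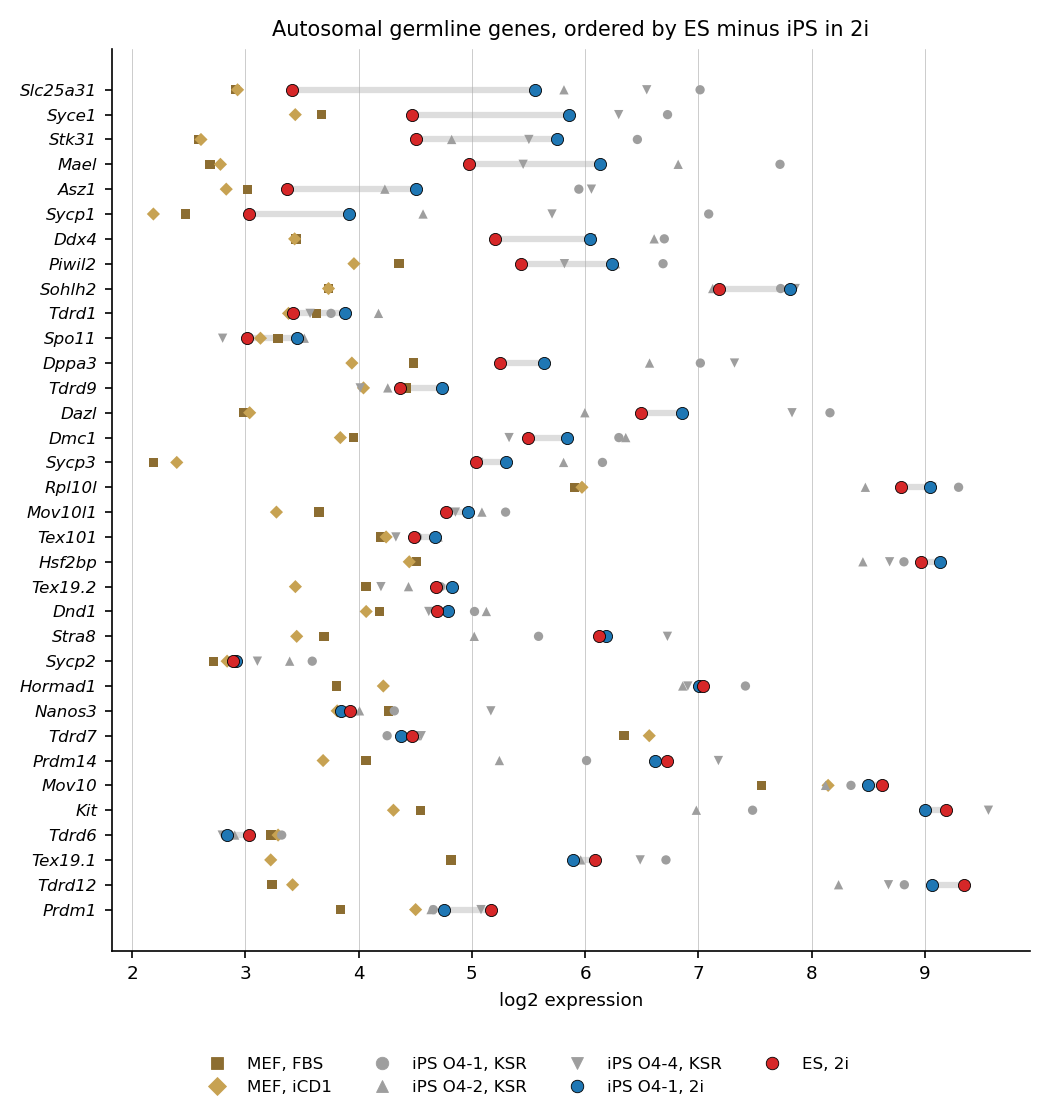
Log2 expression of the 34 autosomal members of the germline list on all 7 arrays, ordered by ES minus iPS in 2i, with the iPS (blue) and ES (red) arrays joined by a bar. The genes at the top run from Slc25a31 (5.56 in iPS and 3.41 in ES cells) to Asz1 (4.50 and 3.37), and the lowest gene, Prdm1, is 0.41 higher in ES cells.

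The promoters of these genes are shown because the members differed in the same direction and many germline genes share a known element. The letters CACGTG are the E-box read by MAX, a partner of MGA in the Polycomb complex PRC1.6, and TCCCGC is the core of the E2F6 site of that complex, which represses germ cell genes in ES cells. In RefSeq promoters (GRCm38.p6, the 250 bases before each gene's start), CACGTG, which reads the same on both strands, was present in 6.05% of 27025 genes and in 35.5% (11 of 31) of the germline list. TCCCGC or its reverse complement GCGGGA was present in 16.9% of all genes and 29.0% of the germline list. Among the autosomal genes compared here CACGTG was in 7.04% and TCCCGC in 23.4%, and among residual fibroblast genes in 7.99% and 30.0%, so the share of TCCCGC in the germline list was not above that in the fibroblast genes. Of the 5 genes 2-fold lower in ES cells, Slc25a31 (chr3:40708621-40708870, plus strand), Stk31 (chr6:49395289-49395538, plus strand) and Mael (chr1:166238745-166238994, minus strand) held CACGTG, at -93, -55 and -223 from the start, and Mael held TCCCGC at -143. Neither string was in the windows of Syce1 and Asz1. Of genes higher in ES cells, Ipp held CACGTG at -249 and TCCCGC at -29, and Id2 held neither. Matches are in capitals, each promoter is read 5′ to 3′ along its gene, and a match describes letters and not binding.
Slc25a31: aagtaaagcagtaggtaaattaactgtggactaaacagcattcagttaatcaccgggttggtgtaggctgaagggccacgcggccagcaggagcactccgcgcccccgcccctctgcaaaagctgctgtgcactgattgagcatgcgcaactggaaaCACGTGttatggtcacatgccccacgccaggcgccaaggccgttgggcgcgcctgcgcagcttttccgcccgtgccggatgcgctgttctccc
Stk31: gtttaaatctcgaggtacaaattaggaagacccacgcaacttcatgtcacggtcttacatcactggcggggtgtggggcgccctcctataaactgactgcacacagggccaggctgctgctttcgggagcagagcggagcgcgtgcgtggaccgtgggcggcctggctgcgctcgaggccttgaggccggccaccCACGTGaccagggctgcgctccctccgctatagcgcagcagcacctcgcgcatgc
Mael: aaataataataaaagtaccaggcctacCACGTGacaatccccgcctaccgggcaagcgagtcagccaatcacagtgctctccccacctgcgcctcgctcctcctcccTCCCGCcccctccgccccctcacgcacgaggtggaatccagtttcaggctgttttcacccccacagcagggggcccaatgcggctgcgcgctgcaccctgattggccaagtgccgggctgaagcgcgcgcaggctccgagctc

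Genes on the sex chromosomes are set apart because the 2 cultures need not carry the same ones. On the X, 3 of 739 genes (0.406%) were 2-fold higher in ES cells and 11 (1.49%) 2-fold lower, against 0.686% and 0.251% of autosomal genes. The 3 higher ones were Rtl3 (1.21), Rnf128 (1.13) and Magea4 (1.02). Usp26, a testis ubiquitin protease gene, lay at 3.23 and 3.11 in MEFs, 9.20, 7.98 and 8.57 in the KSR lines, 7.39 in iPS cells and 4.10 in ES cells, a difference of -3.29. Efhc2, Ct55, Scml2, Nxf3 and Rragb were also lower in ES cells, at -2.42, -2.29, -1.95, -1.74 and -1.54. Of the X-linked members of the germline list, Tex11 differed by -0.98, Taf7l by -0.88 and Rhox9 by 0.22. Of the 9 Y-linked genes 3 were higher in ES cells and 6 lower. By 2-fold, 2 (22.2%, against 0.251% of autosomal genes) were lower, Zfy1 at -2.74 and Kdm5d at -1.32. Eif2s3y differed by -0.98 and Uty by -0.38. In ES cells Eif2s3y lay at 6.41, against 6.35 and 6.82 in MEFs, and Uty at 6.07, against 5.56 and 5.80. Xist, the RNA that silences an X chromosome in female cells, lay at 7.46 and 8.02 in MEFs, 4.45 in iPS cells and 4.82 in ES cells.

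Imprinted genes, which are expressed from one parental copy, were scattered and not shifted as a group. Of 37 measured genes 20 (54.1%, against 46.6% of autosomal genes) were higher and 17 lower in ES cells, with a median of 0.06. Grb10, an adaptor protein gene that restrains growth, lay at 10.28 and 10.10 in MEFs, 6.09, 7.78 and 6.36 in the KSR lines, 5.99 in iPS cells and 7.73 in ES cells. Its difference of 1.74 was close to the range of 1.69 among KSR lines, since line O4-2 was as high as the ES cells. Dcn (1.34), Plagl1 (0.87), Sgce (0.73) and Igf2 (0.60) were also higher in ES cells, and Mest (-0.84), Zdbf2 (-0.81) and Sfmbt2 (-0.71) lower. Mest, at 8.92 ± 0.50 (SD, n = 3) in the KSR lines, 8.02 in iPS cells and 7.18 in ES cells, was lowest in the ES cells. Of the Dlk1-Dio3 region, whose silencing in iPS lines is known to limit their potential, the RNA genes Meg3 and Rian differed by 0.20 and 0.33. Meg3 lay at 7.16 in iPS cells and 7.35 in ES cells, against 8.65, 9.22 and 6.90 in the KSR lines.

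The signalling genes 2-fold apart were Id2, Egr2 and Fos in the lists of BMP and Id genes and of MEK-ERK genes, all higher in ES cells. In the list of BMP and Id genes 13 of 16 (81.2%, against 46.6% of autosomal genes) were higher in ES cells, with a median of 0.27. Id4 was higher by 0.70, Id3 by 0.63 and Id1 by 0.28, beside Id2. In the MEK-ERK list (20 genes, median 0.13), Egr2 lay at 5.24, 5.55 and 6.05 in the KSR lines, 5.23 in iPS cells and 6.83 in ES cells, and Fos at 6.86, 7.71 and 7.61, 6.72 and 7.84. These transcription factor genes respond within minutes to serum and stress. The feedback inhibitors of ERK went both ways, with Spry2 at 0.65, Dusp4 at 0.53, Dusp6 at 0.13, Spry4 at -0.19 and Spred2 at -0.77, the last below all other pluripotent cultures at 7.58 in ES cells.

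Genes of cholesterol synthesis formed the most uniform list. Of 20 members 19 were higher in ES cells (95.0%, against 46.6% of autosomal genes), with a median of 0.35 and none 2-fold apart. ES cells exceeded all 3 KSR lines for 19 of 20 genes and the 2i iPS cells for 12 of 20, where 26.5% and 27.6% of autosomal genes did. Cyp51, a sterol demethylase gene, lay at 7.54, 7.66 and 7.50 in the KSR lines, 7.68 in iPS cells and 8.51 in ES cells. Insig1, a sterol sensor that restrains the pathway, lay at 9.74, 9.92 and 10.46 in the KSR lines, 10.46 in iPS cells and 11.11 in ES cells. Srebf2, the transcription factor gene of the pathway, was the exception, with 8.99 in iPS and 8.94 in ES cells. KSR pairs had list medians of 0.19, 0.42 and 0.14, so the size of the shift was within that between sister lines. Glycolysis and hypoxia genes (26, median 0.12) were above all KSR lines for 21 genes in ES cells and 18 in iPS cells. Of autosomal genes 26.5% and 27.6% were. The prolyl hydroxylase gene Egln3 (0.89), Ndrg1 (0.64) and Ero1a (0.60) differed most.

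**Figure D5:**
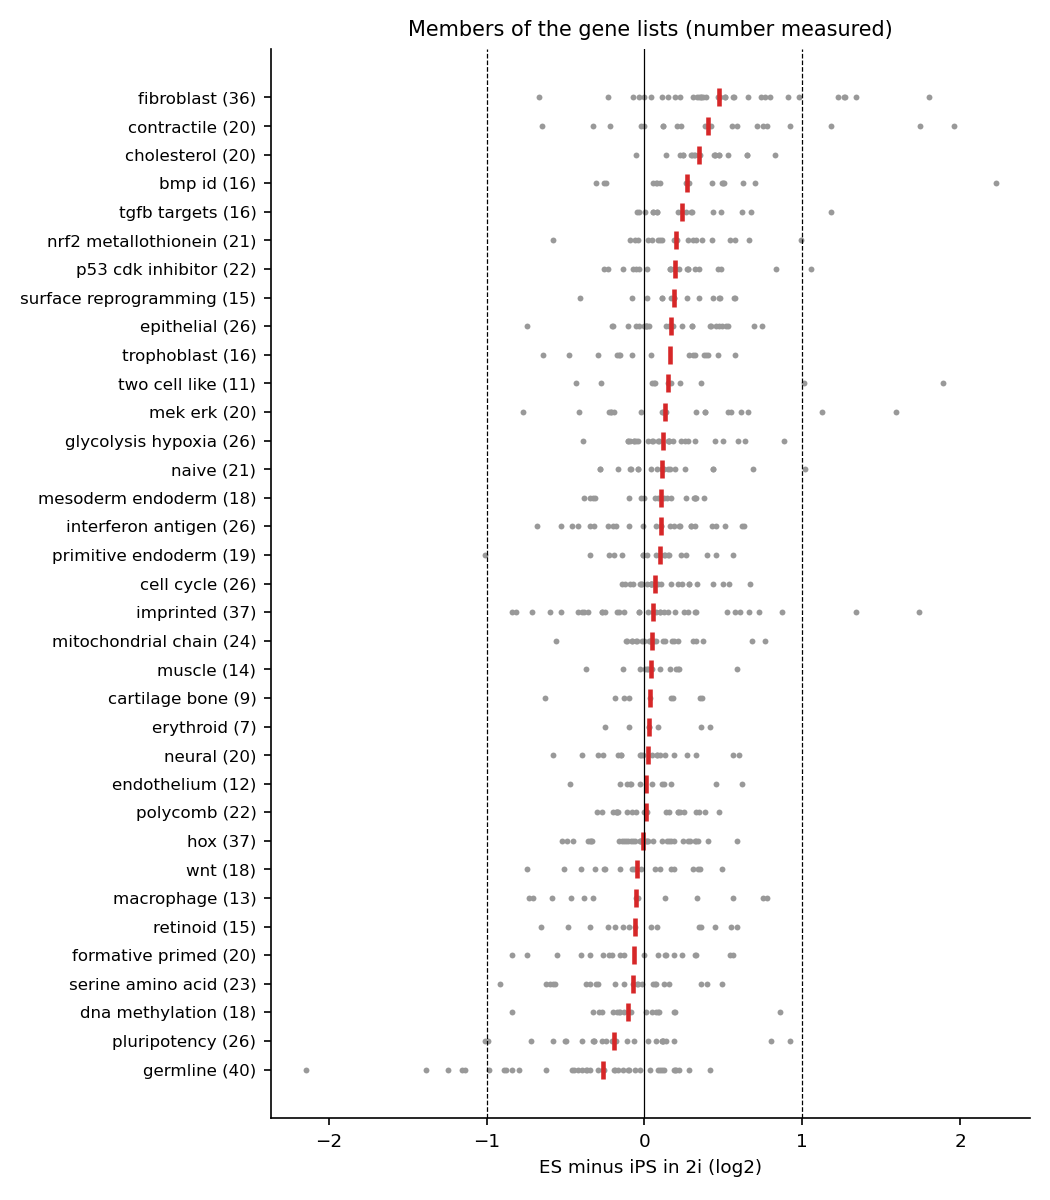
Each grey point is 1 gene of a list, placed by its log2 difference ES minus iPS in 2i, each red tick is the median of the list, and dashed lines mark 2-fold. List medians run from -0.26 (germline) to 0.47 (fibroblast), and nearly all points lie inside the 2-fold lines.

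Lists of other lineages had medians of -0.05 for 13 macrophage genes, -0.01 for 37 Hox genes, 0.01 for 12 endothelial genes, 0.02 for 20 neural genes, 0.03 for 9 cartilage and bone genes, 0.03 for 7 erythroid genes and 0.04 for 14 muscle genes. Those of primitive endoderm (19 genes, 0.10), mesoderm and endoderm (18 genes, 0.11), trophoblast (16 genes, 0.16) and epithelium (26 genes, 0.17) were higher. Of these 11 lists 1 gene was 2-fold apart, Srgn of primitive endoderm at -1.01. Polycomb subunits (22 genes, 0.01), respiratory chain subunits (24 genes, 0.05) and cell cycle genes (26 genes, 0.07) differed as little.

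By position, no autosome stood out. The median difference of single autosomes ran from -0.03 to 0.00, within the -0.04 to 0.05 that KSR pairs spanned. Genes 2-fold apart in one direction and next to each other among the genes compared formed 5 runs with 11 genes in all, each higher in ES cells, and the longest had 3 genes. The runs of 2 were Dcn with Lum, Slc12a8 with Heg1, Elobl with 2210409E12Rik, and Olfr836 with Olfr837. The last 2 genes lay in the low range, below the gene median on both arrays (Olfr836 at 2.63 in iPS and 3.71 in ES cells). Of the 2 probe sets of Heg1, the other one differed by -0.06.

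The run of 3 was Bhmt, Bhmt2 and Dmgdh on chromosome 13. BHMT and BHMT2 remethylate homocysteine to methionine, from betaine and from S-methylmethionine, and DMGDH breaks down the dimethylglycine that BHMT leaves. Bhmt lay at 4.51 and 4.21 in MEFs, 4.31, 4.86 and 5.20 in the KSR lines, 4.64 in iPS cells and 6.24 in ES cells. Bhmt2 lay at 3.42 and 3.49 in MEFs, 3.57, 3.58 and 3.98 in the KSR lines, 4.10 in iPS cells and 5.67 in ES cells. Dmgdh lay at 3.97 and 3.85 in MEFs, 4.08, 3.80 and 4.90 in the KSR lines, 4.64 in iPS cells and 6.59 in ES cells. All 3 were higher in ES cells than on any other array, by 1.60, 1.57 and 1.95 over iPS cells, while the genes on either side, Jmy and Arsb, differed by 0.29 and 0.40. The 3 probe sets of Bhmt ranged from 1.39 to 1.63. Bhmt2 and Dmgdh start head to head, and the 133 bases between their starts (RefSeq, GRCm38.p6, chr13:93674303-93674435, plus strand) are shown because any shared promoter lies there. Its 6 CG dinucleotides are in capitals.
Bhmt2-Dmgdh: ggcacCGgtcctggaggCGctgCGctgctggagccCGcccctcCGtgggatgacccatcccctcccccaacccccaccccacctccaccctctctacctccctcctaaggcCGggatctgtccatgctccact

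MicroRNA genes were represented by 263 autosomal symbols, and their probe sets read the precursor or host transcript and not the mature product. None was 2-fold higher in ES cells, and 1 was 2-fold lower, Mirlet7f-1. It lay at 3.10 and 3.49 in MEFs, 5.38, 4.97 and 4.37 in the KSR lines, 5.23 in iPS cells and 4.15 in ES cells (-1.08). Mirlet7d, from the same cluster, lay at 5.34, 5.31 and 5.22 in the KSR lines, 5.94 in iPS cells and 5.11 in ES cells (-0.82), a difference beyond the KSR range of 0.12. Mirlet7a-1, another let-7 gene, differed less, by -0.44 (4.28 in iPS and 3.84 in ES cells). The let-7 family marks differentiated cells and is the target of the Lin28 proteins. The Lin28 genes were also lower in ES cells, and a link to the let-7 genes was not tested. The mature products of Mirlet7f-1 and Mirlet7d share the seed (bases 2 to 8, in capitals) given here from RefSeq.
mmu-let-7f-5p: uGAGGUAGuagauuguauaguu
mmu-let-7d-5p: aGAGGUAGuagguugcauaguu
Mir17 and Mir18, of a cluster active in proliferating cells, differed by -0.81 and -0.62, and KSR lines ranged over 1.28 and 0.80 for them. The Mir302 genes, which mark pluripotent cells, went the other way at low levels, with Mir302c, Mir302b, Mir302d and Mir302a 0.79, 0.65, 0.62 and 0.56 higher in ES cells, inside KSR ranges of 1.53 to 2.39. Of all 263 genes 80 (30.4%, against 46.6% of autosomal genes) were higher in ES cells and 141 lower, the rest being equal on both arrays, and the median was -0.02.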

How the data were processed

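RNA of 7 mouse cultures was hybridised to 7 Affymetrix arrays, from 100 ng of total RNA each, per the labels' protocols. Each deposited value is the log2 expression of a probe set. Per the submitters' processing notes, the authors' tools were RMA and Partek. Versions, background settings and the array's build were not given in the sources used here. RMA usually brings arrays to a common distribution, and then a shift shared by all genes cannot be seen.

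Of 28853 probe sets, 23410 were annotated, 21789 with 1 symbol, 1621 with several (not used), and 5443 were not in the annotation. Of 999 genes with several probe sets the one with the highest mean was kept. Chromosomes and gene order came from the RefSeq table of GRCm38.p6. ES minus iPS differences compare 1 array with 1 and were not tested. No 2 of the 21 pairs of arrays held identical values. Counts use 2-fold (log2 of 1), and the counting was checked on simulated data. Members and the 36 gene lists (813 entries) were chosen with earlier results of these data known. Named were the 15 largest differences each way among autosomal genes that reached the gene median on the array where they were higher (predicted genes without an established symbol left out), the 10 largest each way among fibroblast and pluripotent-line genes, the 3 largest each way per list, and list members. Sex-linked genes served as a check, and the neighbour runs, microRNA genes and receptor genes named were singled out after their values were seen. Alternatives were the scaling, the probe set, a filter on low values, the fold, the choice of fibroblast genes, and leaving out each KSR line. Python 3.11.15, pandas 2.3.3 and numpy 2.4.6 were used.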

Additional observations from a re-analysis of the deposited data

How the results depend on the processing

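No result reversed under any alternative run. Of 71 named genes under rescaling and averaged probe sets (142 values), 139 moved by less than the spread of the KSR lines, and Piezo2 (-0.35 with probe sets averaged), Zim1 (-0.47 with quantile normalization) and Rtl3 (1.28 with quantile normalization) moved by more. Quantile normalization also gave 3 pluripotent-line genes 2-fold higher, an imprinted median of 0.0093 and a highest autosome median of 0.016. With the filter on low values, 22 autosomal genes were 2-fold lower, 14 of them past the KSR range, and the fibroblast median was 0.44 over 278 genes. At 1.5-fold, 654 autosomal genes were higher and 434 lower, 115 and 2 fibroblast genes, and 22 and 33 pluripotent-line genes. At 4-fold these were 2 and 3, 1 higher, and 0 and 2. Choosing fibroblast genes at 2-fold (1770 genes) gave a median of 0.18 with 2 genes lower, and at 8-fold (105 genes) 0.46 with 12 higher. Choosing pluripotent-line genes at 2-fold gave 12 higher, and at 8-fold 1 higher and 6 lower. Larger or smaller sets follow from these choices, and the cause of the other shifts was not tested. Leaving out each KSR line gave fibroblast medians of 0.28 to 0.30 and 33 to 37 genes 2-fold higher. It gave pluripotent-line medians of -0.08 to -0.07 with 5 to 7 genes higher and 12 to 14 lower, and 109 to 127 higher and 42 to 43 lower genes past the KSR range. No paired analysis was possible because the groups compared have 1 array each and share fewer than 2 replicate numbers. Without a signal over background, differences between low values cannot be told from background.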

Other observations

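Probe sets that could not be named by 1 gene held differences of the same kind. Of the 5443 probe sets not in the annotation, 31 were 2-fold higher and 22 lower in ES cells (0.974%), with differences from -1.78 to 2.66. Of the 1621 probe sets with several symbols, 8 were 2-fold higher and 15 lower (1.42%), from -2.54 to 2.12.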
